A study of Mus musculus with 768 samples.

Results

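The axon guidance ligands and receptors described here were all genes of the count table with the symbol of a semaphorin, a plexin, a neuropilin, an ephrin, an Eph receptor, a Slit, a Robo, a netrin, an Unc5 receptor, Dcc or Neo1. They numbered 68 of the 25700 genes in the table, chosen by symbol alone and not by any measured value (Ntn3 was not analysed here). The cells were single Schwann cells (SCs) from the sciatic nerves of 60-day-old mice on a C57bl/6J background that carried ReYFP Tg/+, βAct-DsRed Tg/+ and a Cre transgene active in the SC lineage, which switches on YFP, so that the sort follows Cre history and not a class of SC. Both plates held 384 cells of this 1 genotype and age, with no treatment, sequenced by the full-length Smart-Seq2 method from males and females pooled, and each plate is 1 biological replicate.

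These proteins are named for steering growing axons, but they act between many kinds of neighbouring cells. Semaphorins are secreted (class 3) or membrane-bound (classes 4 to 7) ligands of plexins, and most class 3 members need a neuropilin as co-receptor. Ephrins are themselves tethered to the membrane and bind Eph receptor tyrosine kinases on the cell opposite, with signals possible in both directions. Slits bind Robo receptors, and netrins bind Dcc, Unc5 receptors and Neo1. In nerves, SCs lie against axons and against each other, and Eph and Slit signals are known to sort and guide them in injured nerve.

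Classes were rebuilt by clustering without the 68 genes, so that none of the 68 helped to define the class it is compared in. The SC markers and the markers of other nerve cells given below were not left out of that clustering. Of the 768 cells, 674 had the 1500 detected genes required. Clusters carrying markers of myelinating SCs (Prx, Mag, Pmp22 and others) were called mSC-like, with 149 cells in plate 1 and 73 in plate 2. Those with markers of non-myelinating (Remak) SCs (Scn7a, Gfap, Cdh2 and others) were called nm(R)SC-like, here Remak-like for short, with 176 and 248 cells. Among these markers Gap43 did not exceed 1.59 CPM, and Ednrb in plate 2 was at 203 CPM in mSC-like against 311 CPM in Remak-like cells. The Remak-like cluster led by Ednrb and Tagln2 (62 and 52 cells) carried the markers weakly. Its mean standardized marker level was 0.0589, beside 0.244 to 0.391 in the other Remak-like clusters. A cell-cycle cluster of 28 cells was set aside. Reads of the cells were summed per plate and class into 4 sums of 31254397 (plate 1, mSC-like), 38283992 (plate 1, Remak-like), 54319143 (plate 2, mSC-like) and 153864357 reads (plate 2, Remak-like), and levels are each sum's reads of a gene as its CPM, the count scaled to a common library total of 1000000 reads.

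The SC genes Sox10 (239 to 566 CPM), S100b (223 to 411 CPM) and Erbb3 (130 to 341 CPM) were present in all 4 sums. Markers of other nerve cells were uneven, and some were not low. The endothelial list summed to 36.7 and 12.1 CPM in mSC-like cells of plates 1 and 2 and to 8.65 and 0.39 CPM in Remak-like cells, with Cdh5, Emcn, Tek and Flt1 (4 of 7) under 1 CPM in every sum. Kdr alone gave 36.4 and 11.8 CPM of these mSC-like sums. In plate 1 Cldn5 (0.224 against 6.69 CPM) and Pecam1 (0.064 against 1.65 CPM) were lower in mSC-like than in Remak-like cells. The fibroblast list summed to 226 and 104 CPM against 695 and 304 CPM, with Pdgfra, Dpt and Pi16 (3 of 6) under 1 CPM throughout. In that list Col1a1 was at 212 and 99.5 CPM in mSC-like against 644 and 278 CPM in Remak-like cells. Dcn was at 9.98 and 4.66 against 48.9 and 24.3 CPM, and Lum did not exceed 4.42 CPM. The neuronal list summed to 18.5 and 0.81 CPM against 62.4 and 73.1 CPM, with Rbfox3 under 1 CPM throughout. The immune (7.8 to 20.4 CPM), mural (39.2 to 136 CPM) and perineurial (213 to 327 CPM) lists completed the check. Itgb4 was at 166 to 306 CPM of the perineurial sums, with Lypd2 and Msln under 1 CPM throughout. Cspg4 was at 120 and 123 CPM of the Remak-like mural sums, with Rgs5 and Myh11 under 1 CPM throughout. The part of these cells in any result below was not tested, and in summed counts fewer expressing cells and fewer transcripts per cell cannot be told apart.

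A total of 3 members, all semaphorins, passed the test between the classes (edgeR quasi-likelihood test with plate as a block, Benjamini-Hochberg over all genes tested). Their promoters are shown because these are the genes on which the class difference rests. The sequences are RefSeq's, build GRCm38.p6, 250 bases before the annotated start, on the plus strand, 5′ to 3′. Capitals mark every match, on either strand, to GGGCGG (the GC box bound by Sp1-type factors) or to GCGNGGGCG (bound by Egr factors), and in the Sema5a promoter some of these matches share letters.
Sema5a, chr15:32244563-32244812: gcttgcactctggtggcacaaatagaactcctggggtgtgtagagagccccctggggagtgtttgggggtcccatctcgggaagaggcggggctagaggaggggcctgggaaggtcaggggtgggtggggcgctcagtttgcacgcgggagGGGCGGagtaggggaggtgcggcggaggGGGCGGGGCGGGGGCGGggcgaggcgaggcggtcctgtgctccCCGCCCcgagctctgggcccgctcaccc
Sema6c, chr3:95160170-95160419 (the more upstream of its 2 RefSeq starts): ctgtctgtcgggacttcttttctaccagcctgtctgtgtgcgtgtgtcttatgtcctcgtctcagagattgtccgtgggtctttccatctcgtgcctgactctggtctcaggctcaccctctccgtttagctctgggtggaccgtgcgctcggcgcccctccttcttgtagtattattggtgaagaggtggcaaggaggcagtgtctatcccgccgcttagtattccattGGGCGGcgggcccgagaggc
Sema3e, chr5:14025026-14025275: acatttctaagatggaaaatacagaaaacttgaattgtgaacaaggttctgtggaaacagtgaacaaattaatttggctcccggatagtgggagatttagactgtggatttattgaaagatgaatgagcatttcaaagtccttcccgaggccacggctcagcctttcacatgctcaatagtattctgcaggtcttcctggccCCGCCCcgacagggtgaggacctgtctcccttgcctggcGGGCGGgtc
The Sema5a window held 5 GC boxes and 1 Egr match and was 72% G and C. The Sema6c window (57.6% G and C) held 1 GC box, and that of Sema3e (48% G and C) held 2. Of all 32851 RefSeq windows of this length, 32.7% held a GC box and 4.7% the Egr match. The letters ACAAAG, bound by Sox factors, were in none of the 3 windows (16.5% of all windows held them), and TATAAA was in none either (12.4% of all). These matches are descriptions of letters, and no binding was measured.

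**Figure D1:**
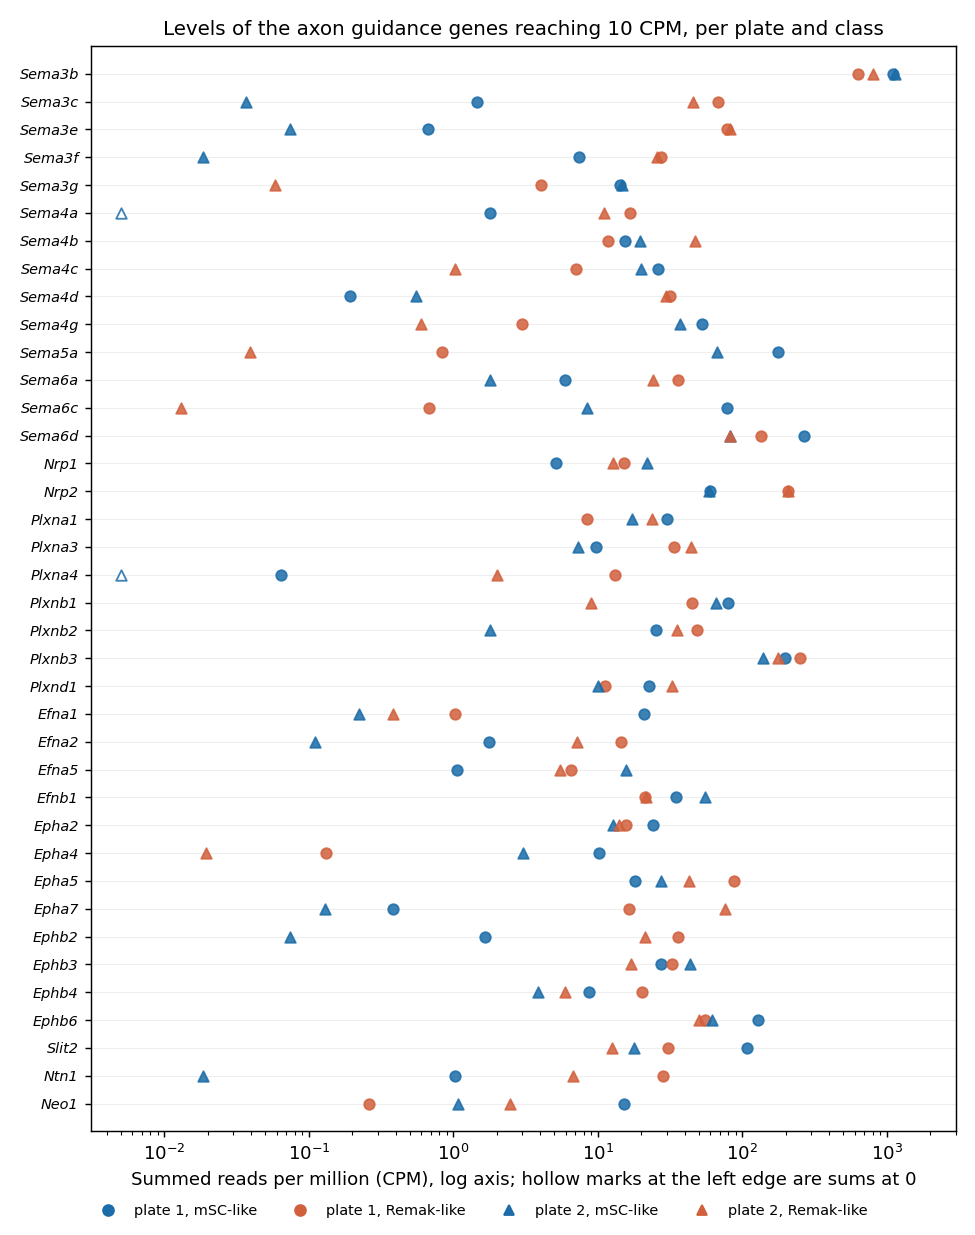
Levels of the 38 members that reached 10 CPM in at least 1 sum. Each row is a gene, the horizontal log axis is CPM, circles are plate 1, triangles plate 2, blue mSC-like and orange Remak-like. Sema3b lies apart at the right, while the blue and orange marks of Sema5a, Sema6c, Sema3e and Sema3c lie far from each other in both plates.

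Of the 68 members 38 reached 10 CPM in at least 1 sum, 18 stayed under 1 CPM in all 4, and 7 of these (Dcc, Ntn4, Robo2, Robo3, Robo4, Sema3d and Unc5d) had no read in any cell. Compared per kilobase of exon length as the mean of the 4 sums, the secreted semaphorin Sema3b stood at 193 CPM per kilobase. The next were the plexin Plxnb3 (29.5), the Eph receptor Ephb6 (19.6), the membrane semaphorin Sema6d (13.5), the co-receptor Nrp2 (11.3) and the ephrin Efnb1 (9.65). Per kilobase of the longest transcript Sema6d (22.1) and Nrp2 (19.9) came before Ephb6 (19.6).

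Among the semaphorins, 14 of 20 reached 10 CPM. Sema3b, a class 3 ligand, stood in plate 1 at 1101 CPM (mSC-like) and 636 CPM (Remak-like), and in plate 2 at 1141 and 804 CPM. The fitted log2 ratio of mSC-like to Remak-like cells was 0.82 ± 0.33 (SE, n = 2 plates), which did not pass (edgeR adjusted p = 0.358). Its reads were spread widely: after every cell was thinned to 100000 reads, 5 or more Sema3b reads were found in 95% of 100 mSC-like and 91% of 111 Remak-like cells of plate 1, and in 76.4% of 72 and 72.9% of 240 cells of plate 2.

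Sema5a, a membrane semaphorin with thrombospondin repeats (chromosome 15, 32244810 to 32696341, GRCm38), was higher in mSC-like cells. It was at 178 and 67.2 CPM in the mSC-like sums of plates 1 and 2, against 0.836 and 0.039 CPM in the Remak-like sums. Both mSC-like sums lay above both others, with a log2 ratio of 9.24 ± 1.03 (SE, n = 2 plates, edgeR adjusted p = 0.00896). Sema6c, a class 6 membrane ligand (chromosome 3, 95160457 to 95174024), was at 78.3 and 8.49 CPM in mSC-like cells and at 0.679 and 0.013 CPM in Remak-like cells. It too was higher in mSC-like cells of both plates, by a log2 ratio of 8.02 ± 1.38 (SE, n = 2 plates, edgeR adjusted p = 0.0309), though the mSC-like level itself differed between the plates.

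Sema3e, a secreted semaphorin that binds plexin-D1 without a neuropilin (chromosome 5, 14025276 to 14256689), was higher in Remak-like cells. There its levels were 78.5 and 82 CPM in plates 1 and 2, while mSC-like cells had 0.672 and 0.0736 CPM. The Remak-like levels of the plates lay close together, and the log2 ratio was -8.14 ± 1.20 (SE, n = 2 plates, edgeR adjusted p = 0.0201). Sema3e served elsewhere as a marker of these cells; here it named no class.

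Of the 68 members, 49 passed the filter on low counts and were tested, so 2 were called higher in mSC-like cells, where 1.36% of all 13258 genes tested were, and 1 was called higher in Remak-like cells, where 1.12% were. In either direction 2.48% of all genes were called. The median log2 ratio of the 49 was -0.16, beside -0.14 over all genes. Taken without its sign, the median was 2.04 for the 49 and 0.89 over all genes, a difference that was not tested. An unadjusted edgeR p under 0.05 was found for 16 of the 49, and for 12.5% of all genes. The 4 sums leave 1 residual degree of freedom. DESeq2 on the same sums called 8 members higher in mSC-like cells (5.60% of all genes) and 11 higher in Remak-like cells (7.43%). Besides the 3 above, and named after their values were seen, these were Sema3g, Sema4c, Sema4g, Plxnb1, Epha4 and Ephb1 on the mSC-like side and Sema3c, Sema3f, Sema4a, Sema4d, Sema6a, Nrp2, Plxna4, Epha7, Ephb2 and Ntn1 on the other. When variable genes for clustering were chosen on both plates together, which placed 92.3% of cells in the same class, none of the members was called by edgeR. Over all genes 464 of 13207 were called in that setting. The log2 ratio was then 6.28 for Sema5a (adjusted p = 0.391), 6.32 for Sema6c (0.177) and -3.24 for Sema3e (0.0653).

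**Figure D2:**
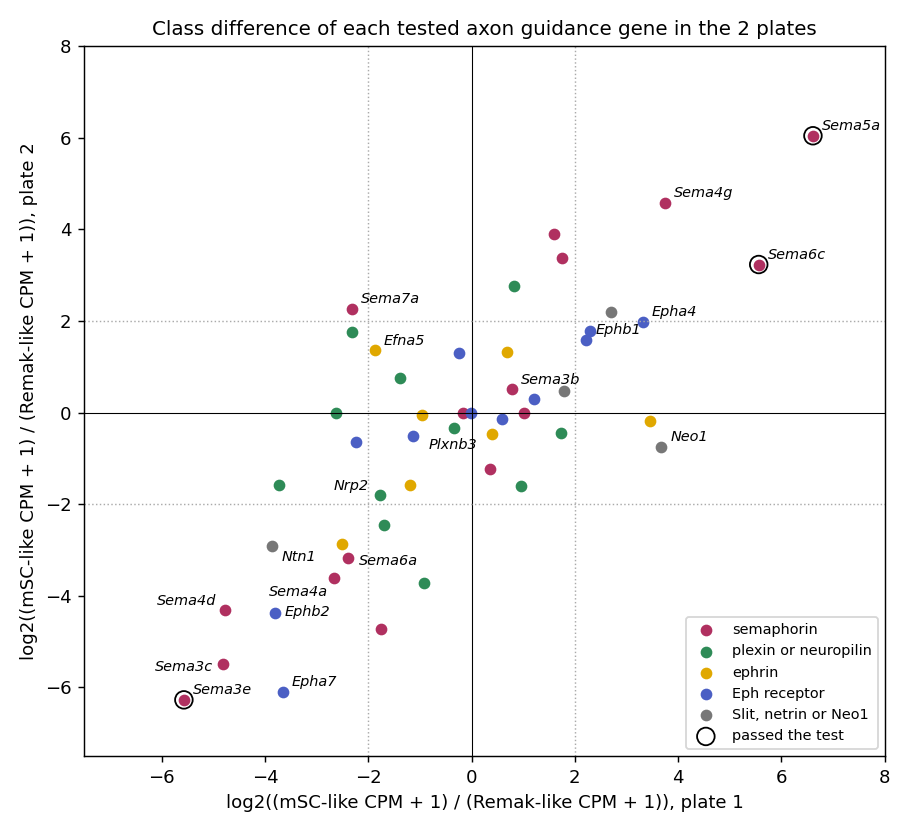
Class difference of the 49 tested members, each a point at its log2 ratio of mSC-like to Remak-like CPM (1 CPM added to both) in plate 1 (horizontal) and plate 2 (vertical). Dotted lines mark 4-fold, colours the gene family and rings the 3 genes that passed the test. Points in the upper right and lower left differ the same way in both plates, as 33 of 49 did.

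Plates gave the same direction for 33 of the 49 members (67.3%, beside 61.4% of all genes tested). Within each plate, 9 members differed at least 4-fold in the same direction in both, counting only the 29 that reached 10 CPM in the higher class of both plates. Of these, 2 were higher in mSC-like cells (3.05% of the 8597 genes that met the same level) and 7 higher in Remak-like cells (5.13% of those genes). With 1 sum per class in a plate, these folds carry no test. The members on the mSC-like side were Sema5a and the membrane semaphorin Sema4g, which was at 52.4 and 37.3 CPM in mSC-like cells and at 2.98 and 0.598 CPM in the others (log2 ratio 5.22 ± 1.12, SE, edgeR adjusted p = 0.0627).

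On the Remak-like side stood 5 semaphorins and 2 Eph receptors. Sema3c, a secreted ligand that uses neuropilins, was at 68.1 and 45.7 CPM in Remak-like cells and at 1.47 and 0.0368 CPM in mSC-like cells, with a log2 ratio of -7.36 ± 1.56 that just missed the limit (edgeR adjusted p = 0.0611). Sema4d, the ligand of plexin-B1, was at 31.6 and 29.7 CPM against 0.192 and 0.552 CPM (edgeR adjusted p = 0.0877). Both plates thus put these 2 ligands on the same side as Sema3e. Sema6a, a ligand of plexin-A2 and plexin-A4, was at 35.8 and 24.2 CPM against 5.95 and 1.79 CPM (edgeR adjusted p = 0.365). Sema4a was at 16.7 and 11.1 CPM against 1.79 and 0 CPM (edgeR adjusted p = 0.501), and 1 cell held 78.4% of its reads in the plate 1 Remak-like sum. None of the remaining semaphorins was 4-fold apart in the same direction at 10 CPM in both plates, though not all were low. Sema6d reached 270 CPM in mSC-like cells of plate 1. In plate 2 its classes were close, at 81.9 (mSC-like) and 82.8 CPM (log2 ratio 0.67 ± 0.43, SE, edgeR adjusted p = 0.633). Sema4c was at 26.1 and 20 CPM in mSC-like against 7.05 and 1.02 CPM in Remak-like cells (edgeR adjusted p = 0.416). Sema3a, Sema3d and Sema5b stayed under 1 CPM in all sums. Sema7a lay on opposite sides in the 2 plates (mSC-like 0.544 against 6.69 CPM in plate 1, 5.19 against 0.279 CPM in plate 2). In the plate 2 mSC-like sum 1 cell held 95.7% of the Sema7a reads.

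The neuropilins and plexins receive most of these ligands. Nrp2, co-receptor of Sema3c and Sema3f, had levels that lay close together in the 2 plates, at 208 and 207 CPM in Remak-like cells and at 60.3 and 58.6 CPM in mSC-like cells. Both classes therefore held Nrp2 reads, and its log2 ratio of -1.63 ± 0.39 (SE, n = 2 plates) did not pass (edgeR adjusted p = 0.0928). In plate 2, 1 cell held 27.7% of the Nrp2 reads of the mSC-like sum and 1 cell 25.9% of the Remak-like sum. Nrp1 was at 5.18 to 22.1 CPM, in opposite directions in the 2 plates. All 9 plexins were tested and none was called by edgeR (DESeq2 called Plxnb1 and Plxna4). Plxnb3, a receptor of Sema5a, was at 198 and 140 CPM in mSC-like and 251 and 176 CPM in Remak-like cells, a log2 ratio of -0.16 ± 0.36 (SE, n = 2 plates, edgeR adjusted p = 0.957). Plxnb1, receptor of Sema4d, was at 79.6 and 66.2 CPM in mSC-like cells and at 44.6 and 8.92 CPM in Remak-like cells (edgeR adjusted p = 0.283). In the plate 2 mSC-like sum 1 cell held 63% of the Plxnb1 reads. Plxnd1, the receptor of Sema3e, was at 10.1 to 32.6 CPM in all 4 sums and leaned to opposite classes in the 2 plates. Plxnb2 was at 25.4 and 1.8 CPM in mSC-like cells and at 48.9 and 35.6 CPM in Remak-like cells (edgeR adjusted p = 0.484). Plxna1 and Plxna3 reached 30.2 and 44.1 CPM at most, and Plxna2, Plxna4 and Plxnc1 did not exceed 13.1 CPM.

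In the ephrin and Eph family, 3 of 5 A-type and 1 of 3 B-type ephrins reached 10 CPM, as did 4 of 9 A-type and 4 of 5 B-type receptors, and none was called by edgeR (DESeq2 called Epha4, Epha7, Ephb1 and Ephb2). Efnb1, a transmembrane ephrin, was at 35 and 55.3 CPM in mSC-like and 21.4 and 21.6 CPM in Remak-like cells (log2 ratio 1.21 ± 0.71, SE, edgeR adjusted p = 0.591). No other ephrin passed 21 CPM, the level of Efna1 in mSC-like cells of plate 1, where 1 cell held 77.3% of the Efna1 reads. Ephb6, which lacks kinase activity, was at 129 and 61.6 CPM in mSC-like and 55.1 and 50 CPM in Remak-like cells (edgeR adjusted p = 0.538). Ephb2, a kinase known from SC sorting after injury, was at 36.2 and 21.2 CPM in Remak-like cells and at 1.66 and 0.0736 CPM in mSC-like cells (log2 ratio -6.01 ± 1.78, SE, edgeR adjusted p = 0.17). Epha7 was at 16.4 and 75.8 CPM in Remak-like cells and at 0.384 and 0.129 CPM in mSC-like cells, with a log2 ratio of -7.09 ± 1.51 (SE, edgeR adjusted p = 0.0627). Single cells weighed heavily on Epha7, since 1 cell gave 55.3% of its Remak-like reads in plate 1 and 1 cell 61.9% in plate 2. The A-type receptor highest per kilobase of exon length, Epha2 (by the longest transcript it is Epha5, at 6.02 CPM per kilobase against 4.26), was at 12.8 to 24 CPM in the 4 sums (edgeR adjusted p = 0.968), and Epha5 reached 88.2 CPM in Remak-like cells of plate 1. Epha3, Epha8 and Epha10 stayed under 1 CPM throughout.

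Among the members, the Slit and netrin systems were represented mainly by ligands. Slit2 was at 108 and 17.9 CPM in mSC-like and at 30.6 and 12.6 CPM in Remak-like cells (log2 ratio 1.33 ± 0.70, SE, edgeR adjusted p = 0.522). The Robo receptors had almost no reads at this depth. Robo1 had 3 reads, all in Remak-like cells of plate 2 (0.0195 CPM), Robo2, Robo3 and Robo4 had none, and 0 of 240 thinned Remak-like cells of plate 2 had 5 reads of any Robo gene, which allows a share of up to 1.25% (3 cells of the total, the limit taken here for a count of 0). Ntn1, a secreted netrin, was at 28.3 and 6.7 CPM in Remak-like cells and at 1.02 and 0.0184 CPM in mSC-like cells (log2 ratio -6.17 ± 2.17, SE, edgeR adjusted p = 0.275). Dcc had no read. Neo1, which also binds repulsive guidance molecules, was at 15.1 CPM in mSC-like cells of plate 1 and at 0.261 to 2.48 CPM in the other 3 sums. The Unc5 receptors did not exceed 4.47 CPM (Unc5b in Remak-like cells of plate 1, where 1 cell held 96.5% of its reads).

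**Figure D3:**
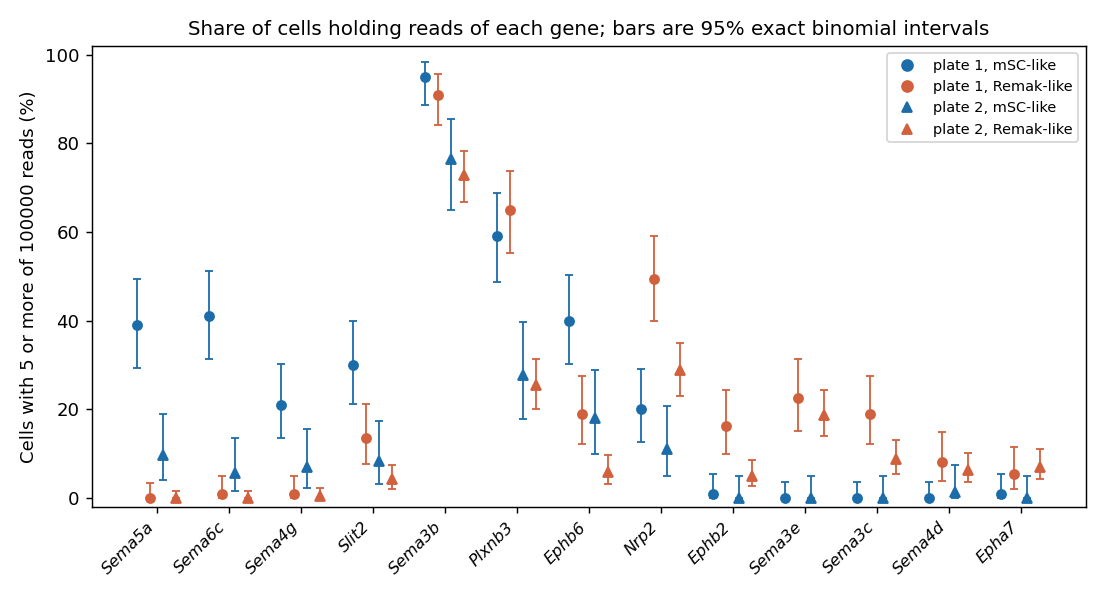
Share of cells (vertical axis, percent) with 5 or more reads of each gene after thinning to 100000 reads, per plate (circle 1, triangle 2) and class (blue mSC-like, orange Remak-like), with 95% exact binomial intervals for counting error. Sema3b is found in most cells, whereas the genes that differ between classes are each found in a minority of the higher class and in at most 1 cell of the other for Sema5a, Sema6c, Sema3e and Sema3c.

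At 5 or more reads after thinning, the genes that differed between the classes were found in a minority of cells of the higher class. Cells under this minimum are not counted, so a low share can reflect a low level. With 1 read as the minimum, the mean shares of the plates were 31.2% for Sema5a, 26% for Sema6c and 26.8% for Sema3e. Thinning left 100 mSC-like and 111 Remak-like cells in plate 1 and 72 and 240 in plate 2, and intervals are exact Clopper-Pearson 95% intervals covering counting error only, while a count of 0 is given its limit of 3 cells of the total. In plate 1, 39 of 100 mSC-like cells held Sema5a (39%, interval 29.4% to 49.3%), and in plate 2 this was 7 of 72 (9.72%, 4% to 19%). No Remak-like cell reached 5 Sema5a reads, 0 of 111 allowing up to 2.7% and 0 of 240 up to 1.25%. For Sema6c the mSC-like counts were 41 of 100 and 4 of 72, against 1 of 111 and 0 of 240 Remak-like cells. The shares of mSC-like cells with either gene differed between plates by more than their intervals.

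In plate 1, 25 of 111 Remak-like cells held Sema3e (22.5%, interval 15.1% to 31.4%), and in plate 2 this was 45 of 240 (18.8%, 14% to 24.3%). In mSC-like cells it was in 0 of 100, which allows up to 3%, and 0 of 72, which allows up to 4.17%. Sema3c was in 21 of 111 and 21 of 240 Remak-like cells and in none of the mSC-like cells. Both ligands were found together in 5 of 111 and 6 of 240 Remak-like cells. Whether this overlap differs from that of independent genes was not tested. At least 1 of Sema3e, Sema3c and Sema4d was found in 47 of 111 Remak-like cells of plate 1 (42.3%) and 71 of 240 of plate 2 (29.6%), and in 0 of 100 and 1 of 72 mSC-like cells. At least 1 of Sema5a, Sema6c and Sema4g was found in 60 of 100 mSC-like cells of plate 1 and 12 of 72 of plate 2, and in 2 of 111 and 1 of 240 Remak-like cells. These groupings were made after the values were seen and describe how the genes are shared out over cells.

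Receptors could be counted in the same cells. Any plexin was found in 76% and 43.1% of mSC-like cells and in 82% and 39.6% of Remak-like cells of plates 1 and 2. Nrp2 was in 20% and 11.1% of mSC-like cells and 49.5% and 28.8% of Remak-like cells. Nrp2 together with an A-type plexin, a pair that class 3 semaphorins bind, was found in 5% and 1.39% of mSC-like cells and in 8.11% and 1.67% of Remak-like cells. With a plexin of any type, the shares were 18% and 5.56% against 44.1% and 11.7%. Sema3e and its receptor Plxnd1 were found together in 2 of 111 Remak-like cells of plate 1 and in 0 of 240 of plate 2. Plxnd1 itself was found in only 8.11% and 4.17% of these cells, and the overlap was not tested. A typical cell held 6 members in plate 1 and 3 in plate 2 (medians, the same in both classes), and all 68 genes together made up 0.19% to 0.274% of the thinned reads. The plates differed in the same way for all genes, with a median of 2082 and 2166 genes at 5 reads or more per cell in plate 1 and 1332 and 1074 in plate 2.

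**Figure D4:**
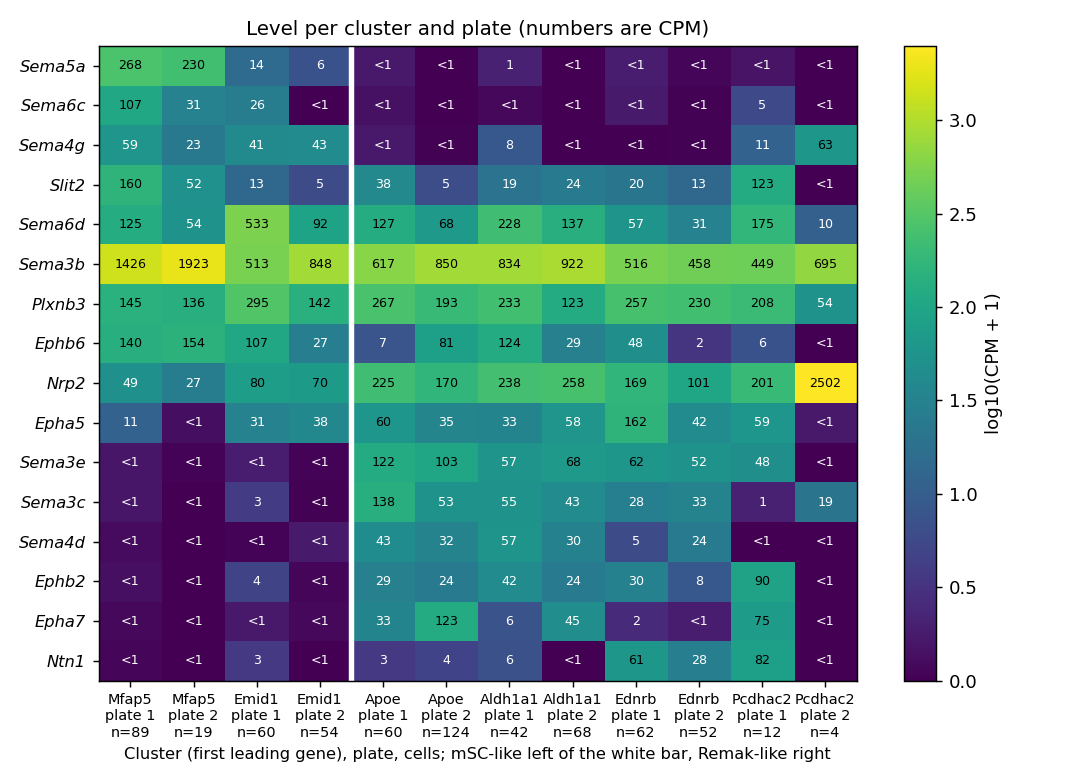
Level of 16 members in each cluster and plate, with CPM written in each cell and colour giving log10(CPM + 1). Columns are clusters headed by their first leading gene, plate and number of cells, with mSC-like clusters left of the white bar. Sema5a is at 268 and 230 CPM in the cluster led by Mfap5 and at 14.5 and 6.08 CPM in the cluster led by Emid1.

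Inside the mSC-like class the members were not evenly spread. This class held a cluster led by Mfap5 and Ogn (89 cells of plate 1 and 19 of plate 2) and a cluster led by Emid1 and Pllp (60 and 54 cells), so the plates contributed them in different proportions. In the Mfap5-led cluster Sema5a reached 268 and 230 CPM in plates 1 and 2, against 14.5 and 6.08 CPM in the Emid1-led cluster. By cells, Sema5a was found in 37 of 63 and 6 of 19 thinned cells of the former and in 2 of 37 and 1 of 53 of the latter. Sema6c was at 107 and 31.1 CPM in the Mfap5-led cluster and at 26 and 0 CPM in the other. Slit2 was at 160 and 51.8 CPM against 12.6 and 5.11 CPM, and Sema3b was at 1426 and 1923 CPM, the Emid1-led cluster of the second plate having 848 CPM. In both plates these 4 ligands were thus higher in the Mfap5-led cluster. Sema6d ran the other way, at 125 and 53.7 CPM in the Mfap5-led and 533 and 92.5 CPM in the Emid1-led cluster, as did Nrp2, at 49.4 and 26.9 CPM against 80 and 70.5 CPM. Sema4g followed neither pattern, at 58.6 and 22.7 CPM against 41.2 and 42.8 CPM. The difference between these clusters was not tested.

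Inside the Remak-like class, Sema3e was held by each of the 3 larger clusters in both plates: 122 and 103 CPM in the cluster led by Apoe and Scn7a, 57 and 67.8 CPM in that led by Aldh1a1, and 62.3 and 52.4 CPM in that led by Ednrb and Tagln2. Sema3c was at 138 and 52.6, 55.3 and 42.9, and 27.9 and 32.6 CPM in the same 3 clusters. Epha7 was less even, at 33.2 and 123 CPM in the Apoe-led and 6.3 and 44.9 CPM in the Aldh1a1-led cluster but at 1.56 and 0.822 CPM in the Ednrb-led cluster. Ntn1 had the reverse order, at 61.2 and 27.8 CPM in the Ednrb-led cluster, 2.64 and 3.76 CPM in the Apoe-led and 5.94 and 0 CPM in the Aldh1a1-led cluster. Nrp2 was at 101 to 258 CPM in these 3 clusters. The smallest cluster, led by Pcdhac2 (12 and 4 cells), had Nrp2 at 201 and 2502 CPM, the second value from 4 cells.

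The low reads in the opposite class of plate 1 were examined, because its cells were labelled by combinations of 2 index names, and cells that share an index can receive each other's reads. Of the Remak-like cells of plate 1 that share an index name with the cell richest in Sema5a (984 reads), 8 of 17 had a Sema5a read (47.1%), beside 17 of 159 cells that do not (10.7%). No Remak-like cell of plate 1 had more than 2 Sema5a reads. For Sema3e, 2 of 7 mSC-like cells sharing an index with its richest cell had a read, and 13 of 142 others. For Sema6c the figures were 0 of 13 and 10 of 163 Remak-like cells. The most reads in 1 cell of the lower class were 3 for Sema3e and 9 for Sema6c. Only the richest cell of each gene was considered, and cells counted as others can share an index with further expressing cells. The names of plate 2 cells give no index, so that plate was not examined. Whether exchange between cells gave these reads was not tested.

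Further parts of these pathways were followed through a list of 68 genes (co-receptors, other ligands and cytoplasmic effectors), of which 54 were tested. Chn2, a Rac-deactivating chimaerin of the kind that acts below plexins and Eph receptors, was higher in mSC-like cells, at 60.3 and 35.5 CPM against 0.318 and 0.00651 CPM (log2 ratio 9.62 ± 1.69, SE, edgeR adjusted p = 0.0413). Met, a receptor kinase that can pair with plexin-B receptors, was higher in Remak-like cells, at 113 and 98.7 CPM against 2.42 and 0.493 CPM (log2 ratio -6.37 ± 0.89, SE, edgeR adjusted p = 0.0216). The adhesion molecule L1cam, a partner of neuropilin-1, was higher in the same cells, at 227 and 189 CPM against 4.51 and 0.128 CPM (log2 ratio -7.59 ± 1.35, SE, edgeR adjusted p = 0.0435), and its exons overlap those of Arhgap4. Met was not called with cells of 1000 or more genes (adjusted p = 0.155) or with variable genes of both plates together (log2 ratio -2.44, adjusted p = 0.123). Chn2 and L1cam were not called with cells of 2500 or more genes (adjusted p = 0.0519 and 0.0643) or with no replicate block (0.0554 and 0.0626). In the fit first given, that is 1 gene in the mSC-like direction and 2 in the other, beside the 1.36% and 1.12% of all genes, and the list's median log2 ratio was 0.04 (all genes -0.14). Shared machinery was abundant in all 4 sums: Rhoa was at 342 to 468 CPM, Rac1 at 397 to 496 CPM and Dpysl2, a collapsin response mediator, at 870 to 1328 CPM, none of them called.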

How the data were processed

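Smart-Seq2 libraries of 768 single cells (2 plates) were analysed from the table of gene counts deposited by the authors. Counts are whole reads per gene with no molecular identifiers and no normalization. Per the labels' processing notes the authors used bcl2fastq, STAR 2.6.1c, featureCounts and GRCm38.p5; the study's methods name other versions and a human build, whereas all identifiers are of mouse. The counting's strand setting is not given in the sources used here, so Ephb4, Epha1, Unc5a and L1cam, whose exons overlap genes, are uncertain, as is Plxnc1. Reads per cell had a median of 127766 in plate 1 and 377669 in plate 2. Symbols and exon lengths came from GENCODE M21 (25664 of 25700 identifiers matched), and 58 of the 68 members had a RefSeq promoter. No column lacked a sample.

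Cells with 1500 or more genes were scaled to 100000 reads, integrated over plates and clustered in Seurat 5.3.0 (R 4.3.3; 12 dimensions, resolution 0.5), with the variable genes of each plate joined and the members left out. Clusters were named from 11 mSC and 8 nm(R)SC genes, of which at least 3 had to reach 50 CPM. For all other genes the classes were rebuilt from the opposite random part of the genes, which gave 96.7% and 96.4% of cells the same class, and the naming genes were not tested. In these 2 rebuilt clusterings a cluster led by Hmgn2 and Hmgb2 (32 and 34 cells) was not set aside as cell-cycle. Its cells counted as Remak-like for all genes but the members, Chn2, Met and L1cam included. Sums per plate and class entered edgeR 4.0.16 (TMM; genes kept by filterByExpr at its minimum of 10 counts; plate fitted as a block; adjusted p limit 0.05). Cells are not replicates, and n is 2 plates. With plate as a block, p-values rest on how the class difference varies between plates. That spread, with 1 residual degree of freedom, was moderated by the spread of other genes (prior of 6.59 degrees of freedom). The SE given with a fitted log2 ratio is the ratio's size divided by the square root of the test's F statistic. It therefore carries the same moderation and is not a spread measured over the plates alone. Ratios within a plate add 1 CPM. Doublets were not removed, since 1 cell was sorted per well. On simulated counts the test was checked for recovery of known changes. DESeq2 1.42.0 and 12 further settings were tried.

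Named are members called, those at least 4-fold apart at 10 CPM in both plates, and the highest per kilobase of each family. The members, lists and alternatives were chosen with earlier results of these data known. Some items are not reported here.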

Additional observations from a re-analysis of the deposited data

Results flagged for a closer look

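The cell-cycle cluster (15 cells of plate 1 with 4636860 reads, 13 of plate 2 with only 186928) was left out of the class comparison of the members. In it 3 members were above both classes in both plates and at 10 CPM or more. Efna5, a lipid-anchored ephrin, stood at 49.6 CPM (plate 1) and 1086 CPM (plate 2), against at most 15.8 CPM in any class sum. Nrp2 was at 217 and 455 CPM, against at most 208 CPM. Plxna2, a receptor of class 6 semaphorins, was at 16.6 and 90.9 CPM, against at most 4.15 CPM. Of the cluster's cells 12 in plate 1 and 1 in plate 2 could be thinned, and 5 or more reads of Efna5 were found in 3 and 1 of them. The plate 2 values therefore rest on few reads, and no test was made.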

How the results depend on the processing

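Beside 2 members called on the mSC-like and 1 on the Remak-like side, the numbers were 8 and 11 with DESeq2, 1 and 2 with no replicate block, 1 and 0 with cells of 2500 or more genes, and 0 and 0 with variable genes chosen on both plates together (added after the data were seen). Over all 13258 genes tested, 180 and 149 were called, 742 and 985 with DESeq2, and 92 and 111 with no replicate block. They were 98 and 90 of 12839 with 2500 genes, and 218 and 246 of 13207 with variable genes of both plates together. Members called in the Remak-like direction were 3 with RLE factors, with no filter, with no integration and without the top cell of each gene. They were 4 with thinned cells, and 2 with cells of 1000 or more genes, at resolution 0.8 and with the cell-cycle cluster added. All genes called in that direction were 278 of 13258 with RLE factors, 236 of 16847 with no filter and 228 of 13272 with no integration. They were 228 of 11923 without the top cell and 249 of 12406 with thinned cells. With 1000 genes they were 99 of 13274, at resolution 0.8 122 of 13259, and with the cell-cycle cluster added 151 of 13258. Including the members in the clustering gave the same counts as the fit first given, for the members and for all genes. The signalling list, with 1 and 2 calls, had 7 and 10 with DESeq2, 2 and 4 with RLE factors, 0 and 1 with no replicate block, 0 and 1 with 2500 genes, 2 and 5 with no integration, 2 and 4 with thinned cells, and 2 and 5 without the top cell. In the Remak-like direction it had 4 with no filter and 1 with 1000 genes, and 2 in the mSC-like direction with variable genes of both plates together. All genes called in the mSC-like direction were 290 with RLE factors, 249 with no integration, 241 with thinned cells and 269 without the top cell. A pseudocount of 10 CPM left 2 members 4-fold higher in Remak-like cells instead of 7. The share of all genes at that pseudocount was not computed.

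Sema5a was called under 12 of the 13 alternatives, Sema3e under 11 and Sema6c under 10, and none changed direction. Sema6c lost the call with no replicate block (adjusted p = 0.124) and with 2500 genes (0.104), Sema3e with 2500 genes (0.105). Sema3c passed under 8 alternatives, Sema4g under 7 and Epha7 under 6. Among the named genes directions reversed for Efna1 (log2 ratio -0.96) and Plxnb3 (0.08) with variable genes of both plates together, for Plxnb3 (0.06) with 2500 genes, and without replicate 1 for Efna1 (-0.18), Epha2 (-0.13) and Neo1 (-0.75), none of them called. Within 1 plate no test is possible; without replicate 2 and without replicate 1 the log2 ratios were 6.61 and 6.04 for Sema5a, 5.56 and 3.23 for Sema6c and -5.57 and -6.27 for Sema3e. The cause of these changes was not tested. With minimums of 1 and 20 thinned reads the mean share of Remak-like cells with Sema3e was 26.8% and 13.9% (20.6% at 5 reads), and at 20 reads that of mSC-like cells was 8% for Sema6c (23.3% at 5 reads) and 19.9% for Sema5a (24.4%). Depth limits the low members: 19 of 68 were not tested.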
